A study of Mus musculus with 8 samples.

Results

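The 10 genes described here encode the subunits of the cell's 2 main chaperonins: Tcp1, Cct2, Cct3, Cct4, Cct5, Cct6a, Cct7 and Cct8 of the cytosolic CCT complex, and Hspd1 and Hspe1 of the mitochondrial complex. They were chosen by gene symbol, with the accession of each probe matched to RefSeq, and 20 of the 56605 probes on the array carried one of these symbols. All 20 probes were well above background on all 8 arrays and none was saturated, so all 10 genes were among the 21528 genes tested. Cct3, Cct4 and Hspe1 had 3 probes each, Cct5, Cct6a, Cct8 and Hspd1 had 2, and Tcp1, Cct2 and Cct7 had 1. For a gene with several probes the brightest was used. The others are given beside it for Torin1 against control and for some results of the other comparisons.

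J774.1 cells, an established macrophage-like line from the BALB/c mouse, were treated for 6 h with isorhamnetin at 10 µM, tamarixetin at 10 µM or Torin1 at 1 µM, or served as control. No source used here says how the control cells were handled. The first 2 compounds are isomers, O-methylated forms of the flavonol quercetin that differ in which of the neighbouring hydroxyl groups carries the methyl group, and Torin1 inhibits the kinase mTOR. Each of the 4 groups held 2 biological replicates, each hybridised to its own 1-colour array, and all the cells came from 1 line. Values are log2 signals minus each array's own 75th percentile. They describe each probe against itself across arrays, not the abundance of one gene against another.

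CCT is a barrel of stacked rings in which each position is taken by a different subunit, and it uses ATP to fold actin, tubulin and other proteins that do not fold unaided. Hspd1, known as Hsp60, forms the mitochondrial folding chamber, and Hspe1, known as Hsp10, is its lid. In mammals the Hspd1 and Hspe1 genes lie head to head and share a bidirectional promoter, and both respond to heat shock through the factor HSF1 and to the mitochondrial unfolded protein response. mTOR signalling raises the synthesis of proteins and so the load of new chains that chaperonins receive.

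Promoter windows from RefSeq (build GRCm38.p6, 250 bases before to 50 after the start of transcription) were available for 9 of the 10 genes, all but Cct4, in 12 windows. They are shown for Hspe1, whose window shares most of its bases with an Hspd1 window, and for Cct2, which was not called. Also shown are those of Cct3 and Cct6a, which had the largest falls among the CCT genes under Torin1. The capitals mark matches to heat shock elements, the sites that HSF1 binds, which are made of alternating TTC and GAA units. The Hspe1 window is chr1:55087898-55088197 and the Cct3 window chr3:88296885-88297184, both on the plus strand. The Cct6a window is chr5:129787106-129787405 on the plus strand, and the Cct2 window shown is chr10:117063326-117063625 on the minus strand. Each is written 5′ to 3′. Another Cct2 window, chr10:117063803-117064102 on the minus strand, lies at the annotated start of the gene. It is not shown and held no match. The Cct3 window held no match and so has no capitals.
Hspe1: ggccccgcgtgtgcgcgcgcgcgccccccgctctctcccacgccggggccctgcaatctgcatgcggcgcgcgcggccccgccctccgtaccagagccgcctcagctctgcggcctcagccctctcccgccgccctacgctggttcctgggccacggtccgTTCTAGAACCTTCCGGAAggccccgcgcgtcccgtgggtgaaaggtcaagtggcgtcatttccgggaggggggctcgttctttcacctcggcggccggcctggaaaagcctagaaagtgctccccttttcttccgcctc
Cct3: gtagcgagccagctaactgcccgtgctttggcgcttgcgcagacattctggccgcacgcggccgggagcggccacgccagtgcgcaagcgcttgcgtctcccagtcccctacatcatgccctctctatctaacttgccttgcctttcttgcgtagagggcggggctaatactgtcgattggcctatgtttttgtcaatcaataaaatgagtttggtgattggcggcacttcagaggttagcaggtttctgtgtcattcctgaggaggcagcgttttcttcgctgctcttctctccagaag
Cct6a: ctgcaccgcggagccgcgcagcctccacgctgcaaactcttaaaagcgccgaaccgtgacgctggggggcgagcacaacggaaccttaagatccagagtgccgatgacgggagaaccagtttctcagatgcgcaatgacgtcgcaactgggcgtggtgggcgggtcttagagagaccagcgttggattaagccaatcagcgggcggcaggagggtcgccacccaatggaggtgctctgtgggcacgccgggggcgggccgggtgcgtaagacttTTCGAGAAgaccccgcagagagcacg
Cct2: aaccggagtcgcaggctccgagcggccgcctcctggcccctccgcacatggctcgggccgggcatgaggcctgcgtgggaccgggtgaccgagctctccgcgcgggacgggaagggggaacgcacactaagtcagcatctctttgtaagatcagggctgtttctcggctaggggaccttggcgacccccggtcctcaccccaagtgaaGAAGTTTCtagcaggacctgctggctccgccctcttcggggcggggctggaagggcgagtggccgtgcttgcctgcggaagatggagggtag

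An Hspd1 window on the minus strand, chr1:55087883-55088182, shared 285 of its 300 bases with the Hspe1 window and held the same element read from the other strand. Each motif was searched on both strands. In the 3-unit form TTC, GAA and TTC follow each other at a spacing of 2 bases. It was present in the Hspe1 window and in that Hspd1 window, and in none of the other 7 members with a window. Of 32851 mouse promoter windows 0.603% held it. The other Hspd1 window, chr1:55088194-55088493, lies at the annotated start of the gene, and the first lies downstream of that start. This other window shared 4 bases with the Hspe1 window and did not hold the 3-unit form. A 2-unit form, TTCNNGAA, was present in 1 window each of Hspe1, Hspd1, Cct5 and Cct6a, against 8.52% of all windows. The other phase, GAANNTTC, was present in 1 window each of Hspe1, Hspd1 and Cct2, against 7.86%. Hspd1, Cct2 and Cct5 had more than 1 window, so a count of genes is not on the scale of these percentages of windows. Both 2-unit forms lie within the 3-unit form and overlap it in Hspe1 and Hspd1. The E-box CACGTG, a site of MYC-family and TFE-family factors, was found in the other Hspd1 window and in 7.15% of all windows. A match describes the letters in the window and says nothing of whether a factor was bound.

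The 8 arrays lay on 1 slide and were scanned once, control and isorhamnetin in slide row 1 and tamarixetin and Torin1 in slide row 2. Row and treatment therefore cannot be told apart in Torin1 against control, tamarixetin against control or isorhamnetin against tamarixetin. Isorhamnetin against control and Torin1 against tamarixetin compare arrays of the same row. Control and tamarixetin lay in slide columns 1 and 2, however, and isorhamnetin and Torin1 in columns 3 and 4. Column and treatment therefore cannot be told apart in any comparison but tamarixetin against control. Per array, 41.5% to 52.3% of probes were well above background, and replicates correlated across genes at 0.992 to 0.997. All 10 macrophage markers were above background on all 8 arrays, and no fibroblast, B cell or epithelial marker was above background on all of them. Of 5 T cell markers, Cd3e, Lck and Cd247 were above background on all 8 arrays, while Cd3g was not on any. The log2 of the summed signal of the T cell markers was 2.37 to 2.45 with Torin1 and 2.67 to 3.13 in the other groups. That of the macrophage markers was 9.69 to 9.71 with Torin1 and 9.36 to 9.53 elsewhere. Single macrophage markers went both ways in Torin1 against control. Of the 10, 5 were called higher and 2 lower, where 19.3% of all genes tested were called higher and 30.1% lower. The widest log2 fold changes were 3.85 (Mpeg1) and -2.23 (Fcgr1). The part of these shifts in the results below was not tested. Each value is an average over a culture, so a lower level in all cells and a loss of some cells cannot be told apart.

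With Torin1 the mRNA of both mitochondrial chaperonin genes and of 5 of the 8 CCT genes fell by 12.7% to 28.5% relative to control, while Cct4 leaned upward on this scaling and downward under median scaling. In limma's fit of all 8 arrays, 7 of the 10 members were called lower at adjusted p under 0.05 and none higher. Over all genes tested 30.1% were called lower and 19.3% higher, and over genes whose probe was above background on all 8 arrays, as the members' were, 34.7% were called lower. The median log2 fold change was -0.23 over the 10 members and -0.10 over all genes tested. In 7 of 10 members every Torin1 array lay below every control array, which held for 47.8% of all genes tested. The number called lower depended on single arrays: it was 3 without control replicate 1, 4 without either isorhamnetin array, 6 without either tamarixetin array, and 1 without control replicate 2 or without either Torin1 array. That 1 gene was Hspe1 each time.

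**Figure D1:**
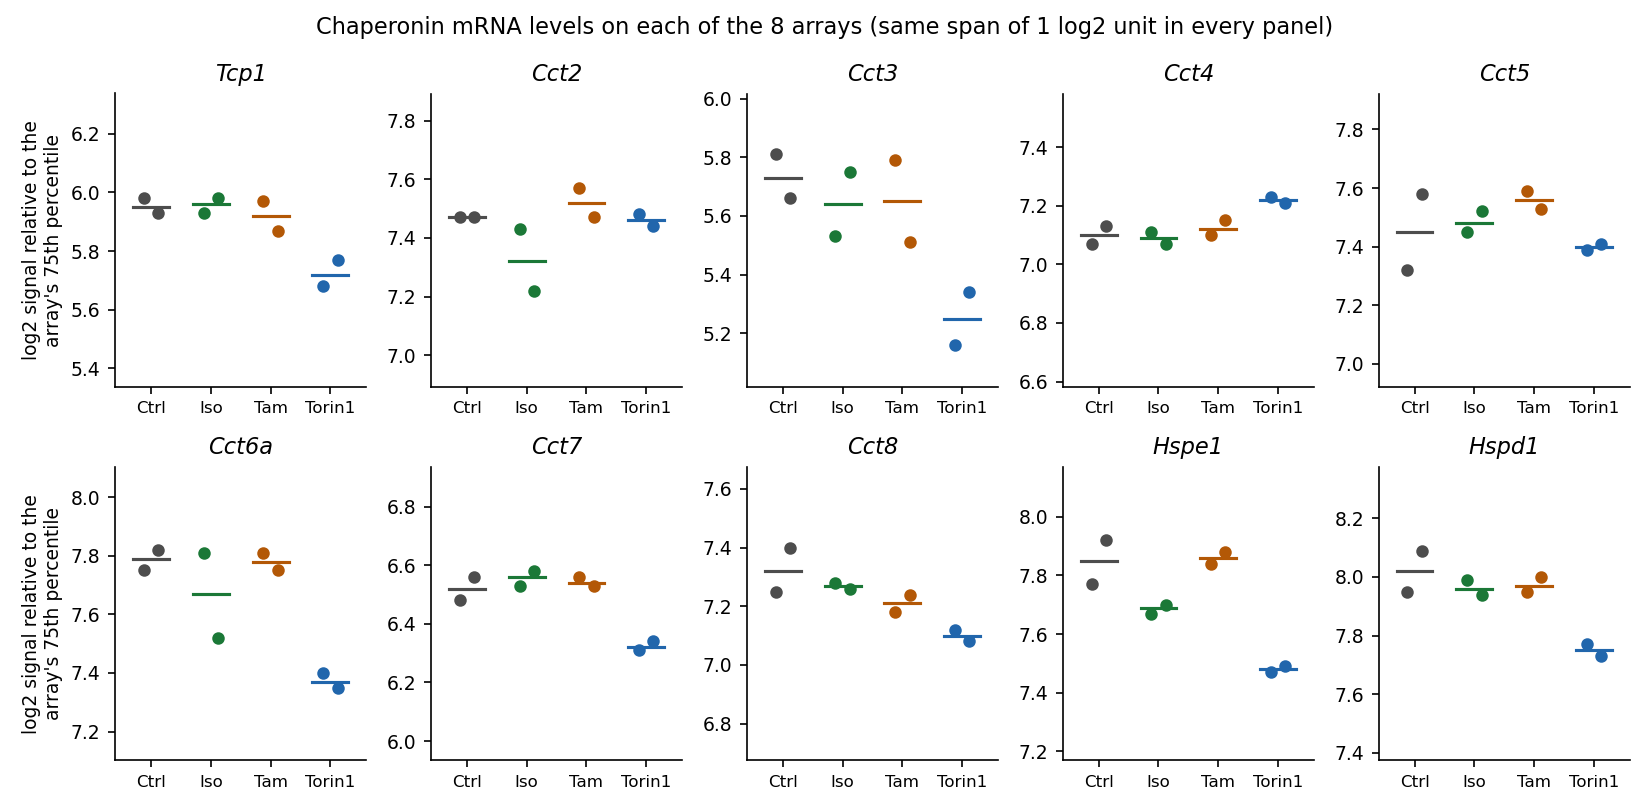
Level of each chaperonin mRNA (y axis, log2 signal relative to the array's 75th percentile) on the 2 arrays of each group (points) with the group mean (lines); every panel spans 1 log2 unit. The Torin1 points lie below the control points for Tcp1, Cct3, Cct6a, Cct7, Cct8, Hspe1 and Hspd1, above them for Cct4 on this scaling (not under median scaling), and within their range for Cct5.

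Hspe1, the lid of the mitochondrial chamber, had log2 levels of 7.77 and 7.92 in control and 7.84 and 7.88 after tamarixetin, against 7.67 and 7.70 after isorhamnetin and 7.47 and 7.49 after Torin1. On this probe the Torin1 arrays were the lowest of the 8, the isorhamnetin arrays came next, and control and tamarixetin overlapped. Torin1 was lowest on the other Hspe1 probes too, but isorhamnetin was less set apart. On one it had 7.20 and 7.16, which overlapped the 7.22 and 7.16 of tamarixetin. On the other it had 5.16 and 5.04, next to 5.23 and 5.17 with tamarixetin. Hspe1 fell by 22.6% under Torin1, a log2 fold change of -0.37 ± 0.07 (SE; limma adjusted p = 0.00615). Its other probes had log2 fold changes of -0.38 and -0.37, and both passed. Hspe1 stayed past the threshold in each of the 15 other processing settings (adjusted p 0.000966 to 0.0442) and in each of the 8 fits that left out 1 array (0.00971 to 0.0385).

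Hspd1, the chamber itself, had log2 levels of 7.95 and 8.09 in control, 7.99 and 7.94 under isorhamnetin, 7.95 and 8.0 under tamarixetin, and 7.77 and 7.73 under Torin1. The Torin1 arrays lay below both control arrays, and the isorhamnetin and tamarixetin arrays overlapped control. Hspd1 fell by 17.0% under Torin1, a log2 fold change of -0.27 ± 0.07 (SE; limma adjusted p = 0.0195). Its second probe had -0.35 and passed as well (adjusted p = 0.00773). The call was lost in 4 of the 15 other settings and in 3 of the 8 fits without 1 array: those without control replicate 2, Torin1 replicate 1 or Torin1 replicate 2 (adjusted p up to 0.0905).

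Cct3, the gamma subunit, showed the largest fall of the family. Its log2 levels were 5.81 and 5.66 in control, 5.53 and 5.75 under isorhamnetin, 5.79 and 5.51 under tamarixetin, and 5.16 and 5.34 under Torin1. Replicates of Cct3 were further apart than those of most members, yet the Torin1 arrays did not overlap any other group. Cct3 fell by 28.5% under Torin1, a log2 fold change of -0.48 ± 0.14 (SE; limma adjusted p = 0.0297). All 3 of its probes passed, with log2 fold changes of -0.46 to -0.53. The call was lost in 4 of the 15 other settings (log2 fold change as small as -0.27, adjusted p up to 0.176) and in 4 of the 8 fits without 1 array (either control array or either Torin1 array; adjusted p up to 0.135).

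Cct6a, the zeta subunit, had log2 levels of 7.75 and 7.82 in control, 7.81 and 7.52 under isorhamnetin, 7.81 and 7.75 under tamarixetin, and 7.40 and 7.35 under Torin1. It fell by 24.8% under Torin1, a log2 fold change of -0.41 ± 0.10 (SE; limma adjusted p = 0.0211). The second isorhamnetin array was the lowest outside Torin1 and still lay above both Torin1 arrays. A dimmer second probe of Cct6a had -0.21 ± 0.18 and did not pass (adjusted p = 0.382), and with the bright probe, which lies near the edge of the array, left out, Cct6a was not called. It lost its call in 3 of the 15 other settings, that one included. Nor was it called without either control array or either Torin1 array (adjusted p up to 0.0995).

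Tcp1, the alpha subunit for which the complex was first named, had log2 levels of 5.98 and 5.93 in control and 5.68 and 5.77 with Torin1, and fell by 14.7% (log2 fold change -0.23 ± 0.06; limma adjusted p = 0.0303). Cct8, the theta subunit, had 7.25 and 7.40 in control and 7.12 and 7.08 with Torin1, and fell by 14.2% (-0.22 ± 0.07; adjusted p = 0.0383). Cct7, the eta subunit, had 6.48 and 6.56 in control and 6.31 and 6.34 with Torin1, and fell by 12.7% (-0.20 ± 0.06; adjusted p = 0.0311), though quantile normalization put it at 0.00. These falls were the smallest of the 7 called. For Tcp1 and Cct7 the call was lost in 6 of the 15 other settings and in 6 of the 8 fits without 1 array, and for Cct8 in 7 of the 15 and 7 of the 8. The second probe of Cct8 had -0.12 and did not pass (adjusted p = 0.269).

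Cct2, Cct4 and Cct5, the beta, delta and epsilon subunits, were not called. Cct2 had log2 levels of 7.47 on both control arrays and 7.48 and 7.44 with Torin1, a difference of -0.01 with a 95% interval of -0.22 to 0.20 (limma adjusted p = 0.928). Cct5 had 7.32 and 7.58 in control and 7.39 and 7.41 with Torin1, a difference of -0.05 with an interval of -0.29 to 0.18 (adjusted p = 0.668). The dimmer probe of Cct5 had 6.40 and 6.44 in control and 6.14 and 6.31 with Torin1, so those groups did not overlap. Its log2 fold change of -0.19 ± 0.09 did not pass (limma adjusted p = 0.131). The interval of the brighter Cct5 probe includes the estimates for Cct7 (-0.20) and Cct8 (-0.22), so a fall of that size is not excluded for Cct5. The Cct2 interval includes the estimate for Cct7 and ends at about that for Cct8. Cct4 had 7.07 and 7.13 in control and 7.23 and 7.21 with Torin1, so both Torin1 arrays were above both control arrays. Its log2 fold change of 0.12 ± 0.05 did not pass (adjusted p = 0.109), with an interval of -0.01 to 0.25 that lies above the estimate for each of the 7 genes called lower. Its other probes, at much lower signal, had -0.01 ± 0.14 and -0.12 ± 0.24.

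**Figure D2:**
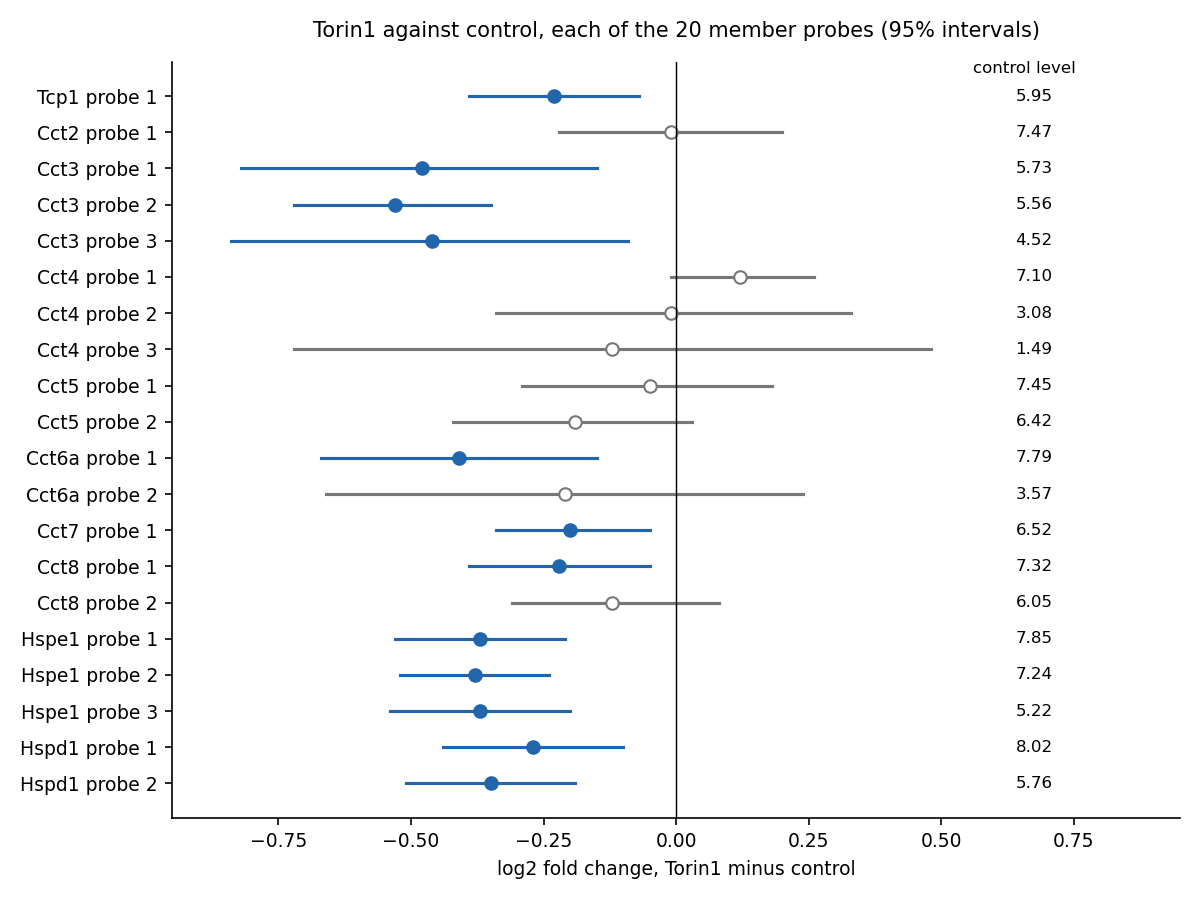
Log2 fold change of Torin1 against control (x axis) for each of the 20 member probes, with 95% intervals; filled points had an adjusted p under 0.05, and the control level of each probe is printed at the right. All 3 probes of Cct3 and Hspe1 and both of Hspd1 passed, while the dimmer probes of Cct6a and Cct8 did not.

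Because a scaling step moves all genes of an array together, the spacing of members on the same array was also read. These pairs were chosen after their values were seen and were given no test, and only the shift of the spacing between arrays has a meaning, not its size. The log2 level of Cct6a minus that of Cct4 was 0.68 and 0.69 in control, 0.71 and 0.45 under isorhamnetin, 0.72 and 0.61 under tamarixetin, and 0.17 and 0.13 under Torin1. Cct3 minus Cct2 was -1.66 and -1.81 in control, -1.89 and -1.46 under isorhamnetin, -1.77 and -1.96 under tamarixetin, and -2.32 and -2.10 under Torin1. The Torin1 values of Cct6a minus Cct4 were below those of the other 6 arrays, the nearest being the second isorhamnetin array. For Cct3 minus Cct2 they were also the lowest, but the distance to the nearest other array was smaller than that between the isorhamnetin replicates. Subtracting 1 value from a whole array leaves such spacings as they are. The spacings were read on the brightest probes only, for Cct6a the one near the array edge. On its dimmer probe Cct6a had 3.73 and 3.41 in control and 3.21 and 3.52 with Torin1, which overlap. The brighter of the dimmer Cct4 probes had 3.08 and 3.09 in control and 2.97 and 3.18 with Torin1, which overlap as well. Hspe1 minus Hspd1 was -0.17 on both control arrays and -0.30 and -0.24 with Torin1, within the -0.32 and -0.24 seen with isorhamnetin.

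The size of the Torin1 change depended on the scaling between arrays. With quantile normalization 3 members were called, 2 lower and Cct4 higher, and with the 75th percentile taken over probes above background on all 8 arrays 2 were called, Hspe1 lower and Cct4 higher. With the percentile taken over every spot rather than every probe, 5 members were called lower and Cct4 higher. Median scaling moved the median of all genes tested from -0.10 to -0.28 and left 7 members lower, with Cct4 at -0.06. The same choice moved the split of all genes called under Torin1 from 4155 higher and 6487 lower to 2515 higher and 8926 lower, and the percentile over detected probes moved it to 5702 higher and 4375 lower.

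**Figure D3:**
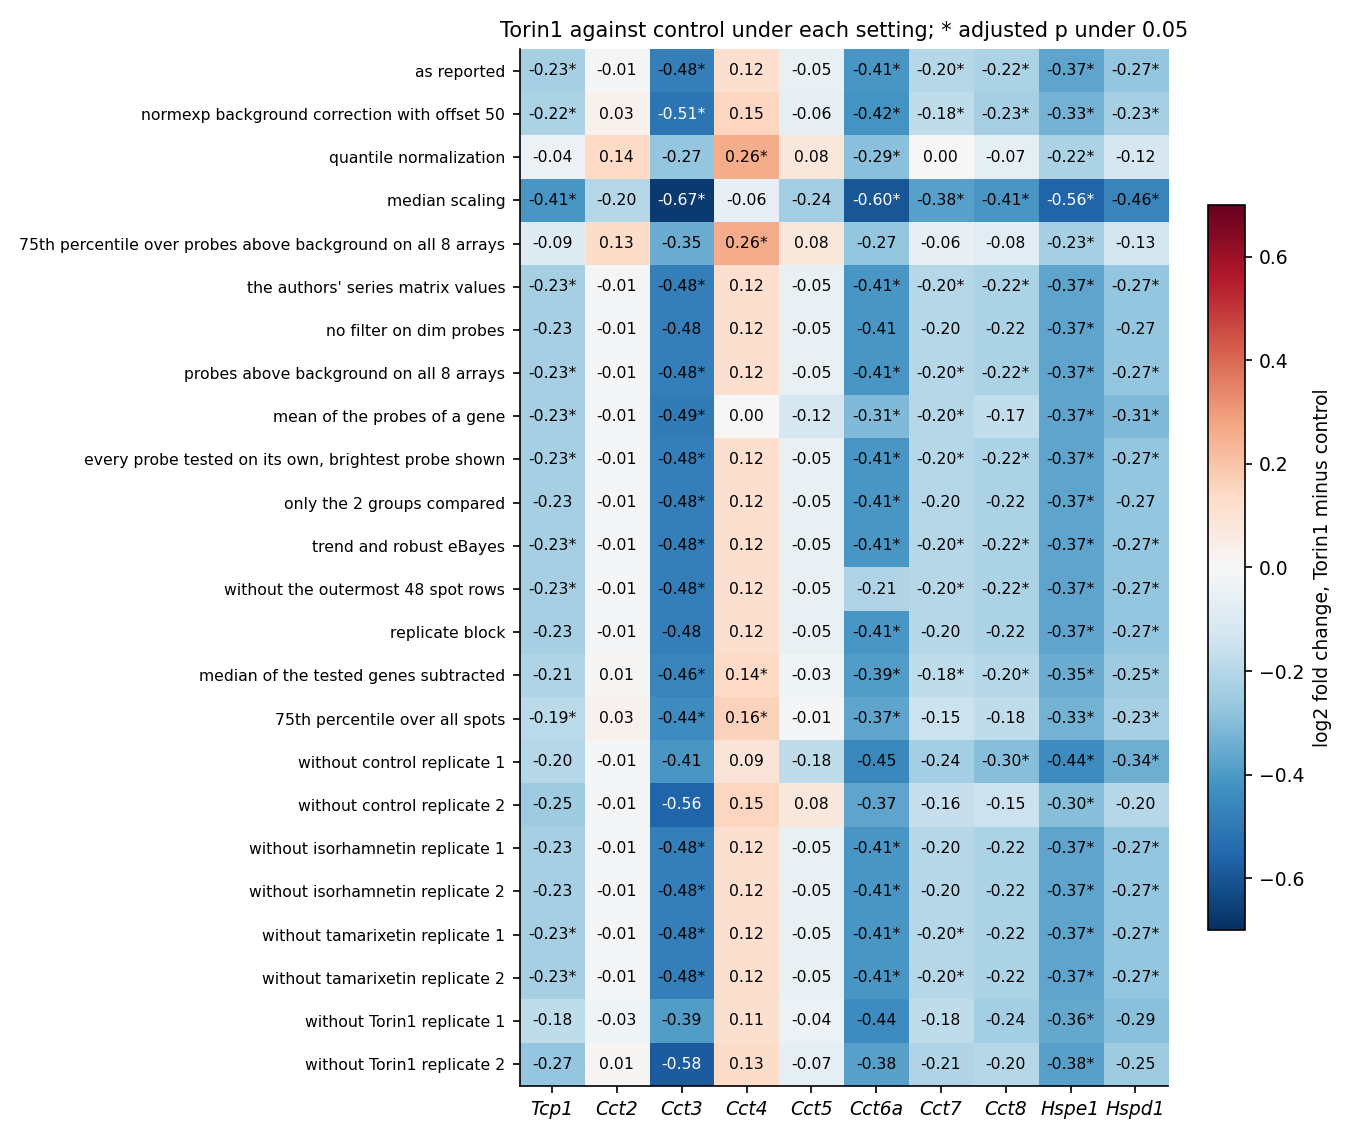
Log2 fold change of Torin1 against control for each member (columns) as reported, under 15 other settings and with each of the 8 arrays left out (rows); an asterisk marks an adjusted p under 0.05. Hspe1 carries the mark in every row, Cct2 and Cct5 in none, and Cct4 in 4 rows in which it is higher.

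Set against tamarixetin, which shares its slide row but not its slide columns, Torin1 gave 4 members called lower of 10. They were both mitochondrial genes with Cct6a and Cct7, and none was called higher. Of all genes tested 24.1% were called lower and 19.1% higher, and of those above background on all 8 arrays 28.5% were called lower. Hspe1 was lower by 0.38 ± 0.07 (SE) on the log2 scale (limma adjusted p = 0.00598), Cct6a by 0.41 ± 0.10 (0.024), Cct7 by 0.22 ± 0.06 (0.024) and Hspd1 by 0.23 ± 0.07 (0.0395). Cct3 had -0.40 ± 0.14 and Tcp1 -0.20 ± 0.06, both just short of the threshold (adjusted p = 0.0591 and 0.0551). In 8 of 10 members every Torin1 array lay below every tamarixetin array, against 38.5% of all genes. The median was -0.21 over the members and -0.03 over all genes tested. The count was 3 without either isorhamnetin array, 2 without tamarixetin replicate 2, and 1, again Hspe1, without tamarixetin replicate 1 or either Torin1 array. Both Torin1 comparisons use the same Torin1 arrays, so they are not independent of each other.

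Neither flavonol gave a call among the chaperonin genes. Against control, isorhamnetin had 0 members called of 10 where 0.543% of all genes were called, with log2 fold changes of -0.16 to 0.04 and a median of -0.05. Hspe1 had the lowest value, -0.16 ± 0.07 (interval -0.32 to 0.00; limma adjusted p = 0.328), and was lower on both isorhamnetin arrays than on either control array. Dimmer probes of Hspe1 had -0.06 ± 0.06 and -0.12 ± 0.07. Cct2 had -0.15 ± 0.08, with 7.43 and 7.22 against 7.47 on both control arrays. Hspe1 came to an unadjusted p of 0.0508, and no member was below 0.05 before adjustment.

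Tamarixetin against control likewise had 0 members called, where 0.079% of all genes were called, with log2 fold changes of -0.11 to 0.11 and a median of 0.01. Cct8 had the lowest value, -0.11 ± 0.07, and Cct5 the highest, 0.11 ± 0.10. The dimmer probe of Cct8 had 0.06 ± 0.08 and that of Cct5 0.01 ± 0.09. No member had an unadjusted p under 0.05. The 95% intervals of the 10 members reached no further than -0.42 (Cct3) and 0.34 (Cct5). For Hspe1 the interval was -0.15 to 0.18, which leaves out its Torin1 value of -0.37. Tamarixetin and control lay in different slide rows, so row and treatment cannot be told apart here.

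At the same dose and time, the isomers were compared across all 10 members, and p-values were adjusted over all genes tested. No member was called, where 0.827% of all genes were, and 1 had an unadjusted p under 0.05. Hspe1 was 7.67 and 7.70 with isorhamnetin and 7.84 and 7.88 with tamarixetin, a log2 difference of -0.18 ± 0.07 (interval -0.34 to -0.01; limma adjusted p = 0.342, unadjusted 0.0378). The other Hspe1 probes had -0.01 ± 0.06 (interval -0.16 to 0.13) and -0.10 ± 0.07 (-0.27 to 0.07). Differences over the members ran from -0.20 to 0.06, and the 95% intervals reached from -0.40 to 0.33. A difference that misses the threshold does not show that the isomers act alike. The isomers lay in different slide rows and columns, so slide position and compound cannot be told apart in this comparison.

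**Figure D4:**
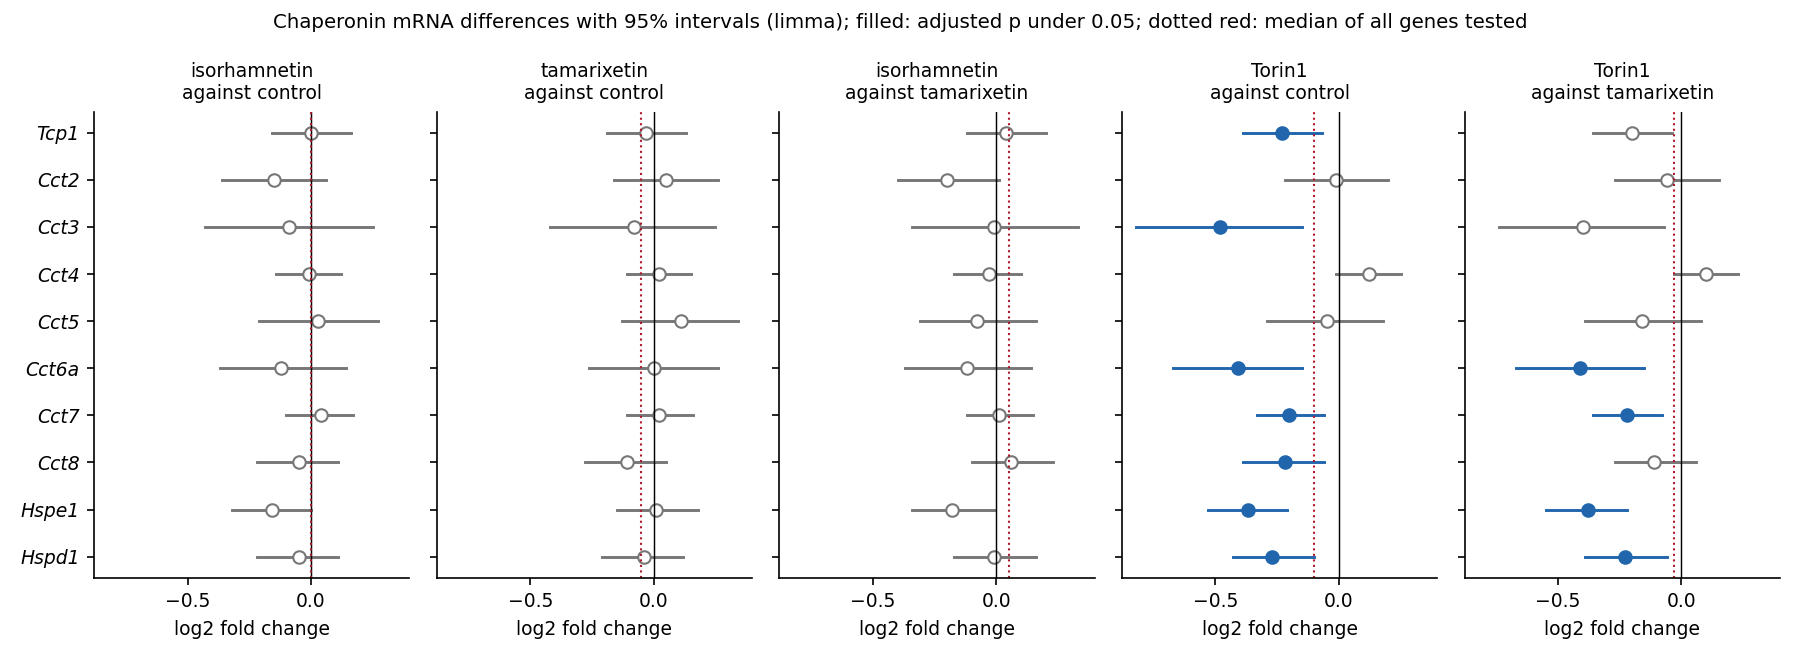
Log2 fold change (x axis) of each chaperonin mRNA in the 5 comparisons, with 95% intervals from limma; filled points had an adjusted p under 0.05 and the dotted red line is the median of all genes tested. Filled points are seen in the Torin1 panels alone, 7 against control and 4 against tamarixetin.

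Proteins that hand substrates to CCT were read next, from lists chosen with earlier results of these data known. Of 9 prefoldin subunits and phosducin-like proteins, which deliver unfolded chains to CCT or modulate it, 5 fell under Torin1 against control and none rose, with a median of -0.21, beside 30.1% called lower and a median of -0.10 over all genes tested. The largest were Pfdn1, from 3.21 to 2.57 (log2 fold change -0.64), Pfdn6 (-0.41) and Pfdn2 (-0.35), all subunits of prefoldin. Against tamarixetin 5 of 9 fell, where 24.1% of all genes were called lower. The largest of these falls were in Pfdn1 (-0.56), Pfdn4 (-0.42) and Pfdn6 (-0.37). Of 5 tubulin cofactors, which take tubulin from CCT to the finished dimer, Tbcb (-0.44) and Tbcc (-0.25) fell against control and none rose, a count close to the share over all genes.

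Most genes on a list of proteins that CCT folds, many of them tubulins, were called lower with Torin1. Of 22 client genes, 19 fell and 1 rose under Torin1 against control, with a median of -0.52. Over all genes tested 30.1% were called lower and 19.3% higher, with a median of -0.10. Tuba1a fell from 3.41 to 1.94 (-1.46), Tuba4a from 2.69 to 1.62 (-1.07) and Tuba1c from 8.90 to 7.94 (-0.96), all alpha-tubulins. Tubulin genes are close copies, so probes may share signal between them. Rptor, which encodes the mTOR partner raptor, rose from 3.14 to 3.80 (0.65). Against tamarixetin 18 fell, among them Tubb6 (-0.99), a beta-tubulin, and again Rptor rose (0.74). The shares over all genes in that comparison were 24.1% lower and 19.1% higher. The 1 call among the folding and stress lists outside the Torin1 comparisons was Tubb2a, higher with isorhamnetin than with tamarixetin (0.48; limma adjusted p = 0.049). Of 3 chaperonin-like relatives tested, Mkks fell (-0.43) and Bbs10 rose (0.38), both being parts of the assembly of the ciliary BBSome; the germ-cell subunit Cct6b was not among the genes tested.

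The mitochondrial Hsp70 and Hsp90 system had 2 of 9 genes called lower and 1 higher under Torin1, where 30.1% of all genes were called lower and 19.3% higher, and 6 did not pass. Grpel1 (-0.45), the nucleotide exchange factor of mitochondrial Hsp70, and Dnajc19 (-0.32), of the import motor, fell, and Hscb (0.92), a co-chaperone of iron-sulphur cluster assembly, rose. Hspa9, mitochondrial Hsp70 itself, had 6.41 and 6.48 in control and 6.33 on both Torin1 arrays, a log2 fold change of -0.11 ± 0.05 that did not pass (limma adjusted p = 0.115). Of 10 mitochondrial proteases, 4 fell and 2 rose: Yme1l1 (-0.50), Clpp (-0.36) and Pmpca (-0.33) fell most, the matrix protease Lonp1 fell by 0.29 (adjusted p = 0.0424), and Htra2 (0.66) and Spg7 (0.26) rose. The median was -0.08 over the Hsp70 and Hsp90 list and -0.19 over the proteases, beside -0.10 for all genes tested, and the counts of both lists are near or below the shares over all genes.

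All 4 regulators of the mitochondrial and integrated stress responses were called under Torin1, 3 lower and 1 higher. Against control 49.4% of all genes tested were called in either direction. Atf4, which drives the integrated stress response, fell from 8.31 and 8.36 to 7.05 and 6.98 (log2 fold change -1.32 ± 0.06; limma adjusted p = 0.000126), and Atf5, the factor linked to the mitochondrial unfolded protein response, fell from 5.27 and 5.37 to 4.04 and 4.07 (-1.27 ± 0.06; adjusted p = 0.000125). Ddit3, which encodes CHOP, fell by 1.47 and Cebpb rose by 1.23. With isorhamnetin and tamarixetin none of these 4 was called.

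Hsf1, the heat shock factor, had 2.51 and 2.55 in control and 2.43 and 2.41 with Torin1 (-0.10 ± 0.05; limma adjusted p = 0.125). Of the 13 genes tested in its list of cytosolic heat shock genes, 11 fell and none rose, with a median of -0.61. Over all genes tested 30.1% were called lower and 19.3% higher. Hspa1b, an inducible Hsp70 with a near-identical copy, was not well above background on either Torin1 array. It was at least 8.42-fold lower than in control, with the Torin1 arrays set no lower than the dimmest probe above background, and the measured means were -0.40 in control and -4.17 with Torin1. Stip1 (-0.92), which links Hsp70 to Hsp90, and Hsph1 (-0.89), an Hsp70 exchange factor, followed. Against tamarixetin 10 of 13 fell, where 24.1% of all genes were called lower, and Hspa1b was at least 7.12-fold lower.

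**Figure D5:**
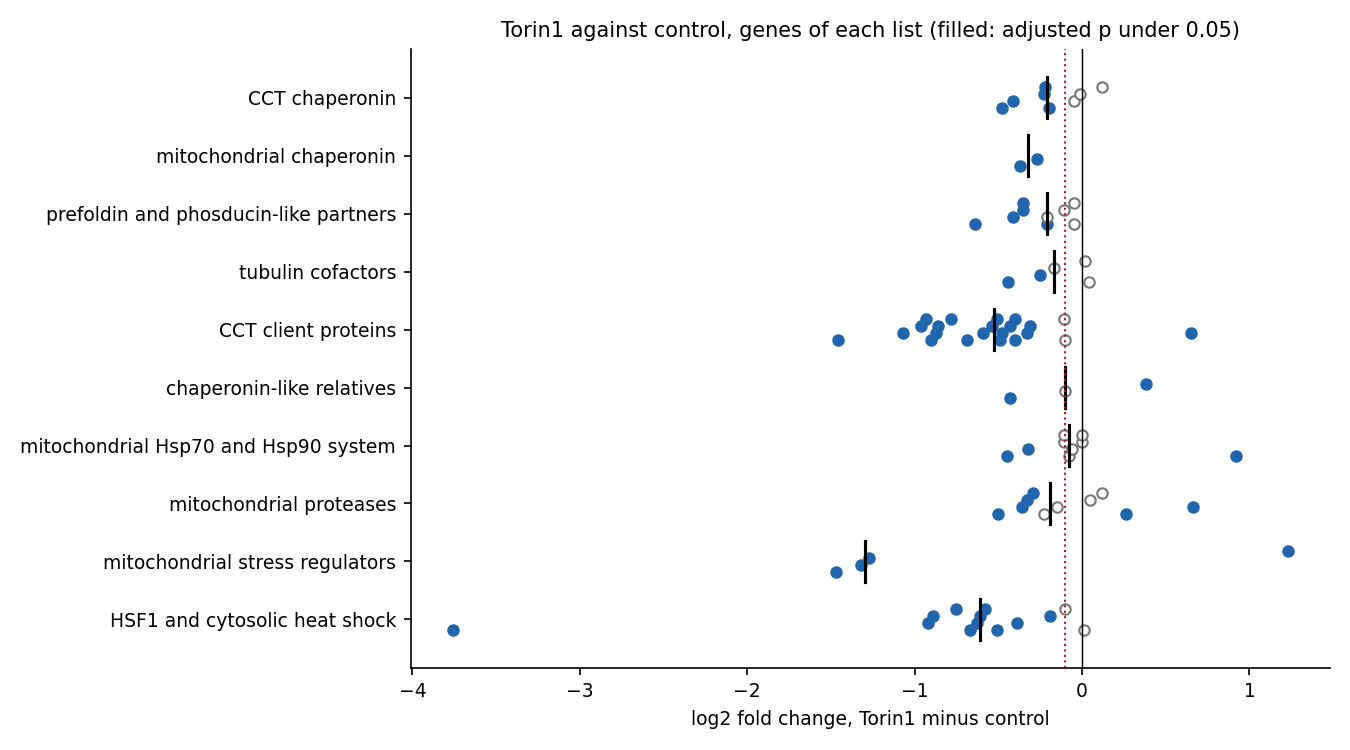
Log2 fold change of Torin1 against control (x axis) for the genes of each list (points; filled, adjusted p under 0.05), with the list median (black line) and the median of all genes tested (dotted red). The chaperonin medians are -0.21 for CCT and -0.32 for the mitochondrial genes, against -0.52 for CCT clients and -0.61 for the HSF1 list.

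Across the 8 arrays, the mean level of the 8 CCT genes was 6.89 and 6.94 in control, 6.89 and 6.86 under isorhamnetin, 6.95 and 6.88 under tamarixetin, and 6.72 and 6.74 under Torin1. The mean of Hspd1 and Hspe1 was 7.86 and 8.0, 7.83 and 7.82, 7.90 and 7.94, and 7.62 and 7.61 in the same order. Both means were lowest on the Torin1 arrays. Among 10541 other named genes above background on all arrays, those with the highest Pearson r to the CCT mean over the 8 arrays were Inip and Prpf38a (0.996), Eif1ax (0.994), Glo1 (0.993) and Wdr46 (0.992). For the mitochondrial mean they were Mrps18a and Emc6 (0.993), Ywhaz (0.992), Lamtor5 (0.990) and Ivns1abp (0.989). All 10 fell under Torin1, by 0.24 to 0.68 on the log2 scale. The 2 Torin1 arrays lie apart from the other 6 in these means, so r describes that gap and is given with no test.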

How the data were processed

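Total RNA was labelled with Cy3 and hybridised to 1-colour Agilent arrays, 2 per group. Per the file headers, the deposited intensity values (processed signals) came from Agilent Feature Extraction 10.7.1.1, after background subtraction and detrending within each array. The authors' deposited series table holds log2 values. They matched the log2 signal minus each array's 75th percentile over probes and minus each probe's median within 0.01 for 99.9% of 56605 probes, and no source used here states that step. The percentile over probes was chosen for this match, after both it and the percentile over spots (35.7% within 0.01) had been computed.

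Control spots were left out, outlier spots dropped (323 probes), spots of a probe averaged, and each array's 75th percentile over its probes subtracted. Kept were probes well above background on each array of 1 or more groups (27562), and the brightest probe of a gene was used (21528 genes, 12939 with a symbol). Accessions matched 1 RefSeq symbol for 32994 probes. limma 3.58.1 (R 4.3.3) was fitted to all 8 arrays with a mean per group and 4 residual degrees of freedom. Tests were two-sided with Benjamini-Hochberg adjustment over all genes, and a call means adjusted p under 0.05. An exact test of 2 arrays against 2 cannot go below 0.333, so none was used. The fit was tested on simulated data. With 2 arrays per group, the number of arrays limits the precision.

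The members, lists and settings were chosen with earlier results of these data known. Named are all members with every probe, up to 3 called genes per direction, list and comparison with the largest change, Hspa9, Lonp1, Hsf1, Atf4, Atf5 and Ddit3 whatever their result, and the 5 genes most like each chaperonin mean. The alternatives changed the background correction, the scaling, the values used, the filter, the rule for several probes, the fit, the array edge and the arrays included.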

Additional observations from a re-analysis of the deposited data

How the results depend on the processing

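Hspe1 was called lower in both Torin1 comparisons under all 15 other settings and all 8 fits without 1 array, and no member was called in the 3 comparisons without Torin1 under any of them. Over the 10 members and all these refits, the Torin1 against control results kept direction and side of the threshold in 159 cases, lost the call in 59, gained one in 4 and reversed in 8. With 2 arrays per group, a fit without 1 array assumes that the lone array varies like the other groups. Signal does not limit the members, all above background, but the array number does. The cause of each change below was not tested, except that fits on fewer arrays have fewer degrees of freedom.

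Where 7 members were called in Torin1 against control, all lower, quantile normalization called 3 (2 lower and Cct4 higher), the percentile over probes above background on all arrays 2 (Hspe1 lower and Cct4 higher), no filter on dim probes 1 and a fit of only the 2 groups 3. Where 4 were called against tamarixetin, no filter called 1 and a fit of only the groups compared called 2. Without 1 array the counts were 1 to 6 against control and 1 to 4 against tamarixetin. All genes called for Torin1 against control were 4155 higher and 6487 lower, 5702 and 4375 with the percentile over detected probes, and 2515 and 8926 with median scaling. The percentile over spots and subtraction of the median of tested genes were added after seeing the data.

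The members' median for isorhamnetin against control was 0.03 with quantile normalization. For tamarixetin against control it was 0.08 with quantile normalization and -0.07 with median scaling. For Torin1 against control it was -0.05, -0.41 and, with the detected-probe percentile, -0.09, and against tamarixetin -0.08, -0.32 and -0.11.

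Single members changed sign, without a call. For isorhamnetin against control, quantile normalization gave Cct4 0.05, Cct8 0.02 and Hspd1 0.05, median scaling Cct7 -0.02, and leaving out the edge rows Cct6a 0.09. Without 1 array Cct5 ran from -0.10 to 0.16, Cct6a from -0.26 to 0.03, Cct8 from -0.13 to 0.02 and Hspd1 from -0.12 to 0.02. For tamarixetin against control, quantile normalization gave Hspd1 0.07, median scaling Cct4 -0.05, Cct7 -0.05 and Hspe1 -0.06, the mean over probes Cct4 -0.08, and leaving out the edge rows Cct6a 0.16. Without 1 array Cct3 ran from -0.22 to 0.06, Cct5 from -0.03 to 0.24, Hspd1 from -0.11 to 0.03 and Hspe1 from -0.06 to 0.09. For Torin1 against control, quantile normalization gave Cct2 0.14, Cct5 0.08 and Cct7 0.00, median scaling Cct4 -0.06, the detected-probe percentile Cct2 0.13 and Cct5 0.08, and the mean over probes Cct4 0.00. Without 1 array Cct5 ran from -0.18 to 0.08. Between the isomers, normexp gave Cct8 -0.03 and the mean over probes Cct4 0.08, and without 1 array Cct3 ran from -0.15 to 0.13 and Cct6a from -0.26 to 0.03. For Torin1 against tamarixetin, quantile normalization gave Cct2 0.03, median scaling Cct4 -0.01 and the detected-probe percentile Cct2 0.04.

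The groups share replicate numbers, but same-numbered arrays did not deviate together (correlations of -0.13 to 0.08 over 6 pairs of groups), so the numbers do not pair them. With a replicate block, 3 members were called in Torin1 against control and 3 against tamarixetin.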
